A study of Mus musculus with 5 samples.

Results

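The microRNA genes with enough reads to describe were examined in Surface-seq libraries of EL4 cells, an established mouse lymphoma line of T lymphocyte origin grown in suspension. These genes were selected on their measured values: genes annotated as miRNA whose symbol starts with Mir, with a sum of 50 or more counts over the 5 libraries. The rule took 74 of the 1174 genes named Mir, among 2202 genes of that type and 55385 genes listed. Of the remaining ones, 142 had between 1 and 49 counts and 958 had 0. Surface-seq purifies plasma membrane, wraps it around polymer particles and sequences the RNA that stays attached. In variation A (3 libraries: A1, A2 and A3) the RNA was taken off the particles with phenol, its ends were repaired with a kinase and adaptors were then ligated, so RNA from either face of the membrane could enter. In variation B (2 libraries: B1 and B2) the 3′ adaptor was ligated to RNA while it was still on the intact particles, which favours RNA that faces outward, and no end repair before that ligation is described. All libraries came from the same untreated line, and no source says that they came from separate cultures, so p-values measure only the spread between these libraries, which may be technical. The face of the membrane and the way the library was made differ together and cannot be told apart. In these bulk libraries, fewer cells of a type and less RNA per cell cannot be told apart either.

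A microRNA gene is transcribed into a long precursor, from which the Drosha and Dgcr8 complex cuts a hairpin in the nucleus. The hairpin is exported by Xpo5 and cut again by Dicer1, and either arm of it can be loaded into an Argonaute protein, which pairs the bases of the seed with target messenger RNAs and lowers their output with the help of Tnrc6 proteins. In T lymphocytes the best studied families are miR-142, miR-150, miR-155, miR-146, miR-181, let-7 and the miR-17 to miR-92 cluster, which tune receptor signalling, proliferation and survival.

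The mature sequences below are those of the members on which the results turn, from RefSeq (GRCm38.p6), written 5′ to 3′ with the seed (bases 2 to 8) in capitals. RefSeq listed 120 mature sequences for 67 of the 74 members, between 19 and 26 bases long, with a median of 22.0. The counts are per hairpin gene and do not separate the arms, so a single arm stands for each gene here. It is not shown to be the arm that was counted. The printed arms of Mir16-1, Mir181a-1 and Mirlet7f-2 each lie in 2 hairpins, and reads wholly within such a sequence were left out. The first 3 sequences printed belong to the only members with 100 or more counts in every library, and no seed is shared among them.
miR-6236: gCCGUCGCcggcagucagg
miR-6240: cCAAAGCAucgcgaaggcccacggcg
miR-6239: uAGCGUUGgaucacucggug

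The next ones belong to the members with the highest mean CPM (counts scaled to the library total) in variation B once those 3 are set aside. The miR-10 arms share their seed and differ by U12A, the miR-10a base first and positions counted from 1 at the 5′ end.
miR-10a-5p: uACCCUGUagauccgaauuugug
miR-10b-5p: uACCCUGUagaaccgaauuugug
miR-182-5p: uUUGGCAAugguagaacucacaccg
miR-183-5p: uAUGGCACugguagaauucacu
miR-532-3p: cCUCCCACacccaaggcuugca
miR-101b-3p: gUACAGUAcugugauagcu
miR-106b-5p: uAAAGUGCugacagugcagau

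Members known from lymphocytes follow, grouped by shared seed: first the let-7 family, then the miR-15 and miR-16 family, then arms whose seed no other member holds. Relative to let-7g, let-7f carries U12A and C18U, and miR-98 carries G11A, U12G, C18U and A19U.
let-7g-5p: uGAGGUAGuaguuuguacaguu
let-7f-5p: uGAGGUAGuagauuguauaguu
miR-98-5p: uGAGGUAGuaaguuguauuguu
miR-15a-5p: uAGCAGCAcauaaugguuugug
miR-15b-5p: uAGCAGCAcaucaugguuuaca
miR-16-5p: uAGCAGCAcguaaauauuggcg
miR-146a-5p: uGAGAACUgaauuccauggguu
miR-150-3p: cUGGUACAggccugggggauag
miR-181a-5p: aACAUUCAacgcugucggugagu

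The libraries differed greatly in depth. Counts on genes came to 2301017, 4502174 and 1187117 (A1, A2, A3), then 21862003 and 22980172 (B1, B2), so variation B supplied 84.9% of all counts and weighed most in choosing the members. The CPM that 3 counts can show was 1.30, 0.666 and 2.53 (A1, A2, A3), then 0.137 and 0.131 (B1, B2). These floors, and the intervals given for shares and ratios, cover counting error only, since no molecular identifiers show which reads come from the same molecule. Of the 74 members, 73 reached 50 counts in variation B alone and 10 reached it in variation A alone. A1 stood apart from A2 and A3, with 39.4% of its counts on protein-coding genes against 22.6% and 22.0%. B1 and B2 were alike there (63.6% and 64.6%), but not in the microRNA genes, as shown further on.

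The members held a similar order of share in both variations, but different genes made it up. Their share of all counts was 2.93% (95% Clopper-Pearson interval 2.91 to 2.96), 4.17% (4.15 to 4.19) and 4.69% (4.65 to 4.73) over A1, A2 and A3, then 2.45% (2.44 to 2.46) and 1.26% (1.25 to 1.26) over B1 and B2. In variation A almost all of it was Mir6236, with 93.9% of the members' counts in A1, 98.4% in A2 and 99.2% in A3. In variation B the most counted member was Mir10b, with 49.6% in B1 and 35.7% in B2. Taken without Mir6236, Mir6239 and Mir6240, the other 71 members held 0.00839% (0.00725 to 0.00966), 0.0191% (0.0178 to 0.0204) and 0.0146% (0.0125 to 0.0169) of the counts of A1, A2 and A3, and 2.05% (2.04 to 2.06) and 0.820% (0.816 to 0.823) of those of B1 and B2. Their mean share was 0.0140% ± 0.00537 in variation A (SD, n = 3) and 1.43% ± 0.869 in variation B (SD, n = 2), 102-fold apart (63.7-fold with ribosomal RNA and mitochondrial genes left out, and 58.5-fold without B1), and the variations did not overlap. Mir6236, Mir6239 and Mir6240 together went the other way, with 3.92% ± 0.898 in variation A and 0.419% ± 0.0283 in variation B. The counts decided which 3 members were set aside, so the size of the 102-fold difference depends on that choice. These shares were given no test, because the counts chose the members. For the same reason p-values are given below only for members with 50 or more counts in each variation alone, which were 10 of 74. The other 64 reached the list through the sum of both or through variation B alone, so their fitted log2 fold changes are descriptions without a test.

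**Figure D1:**
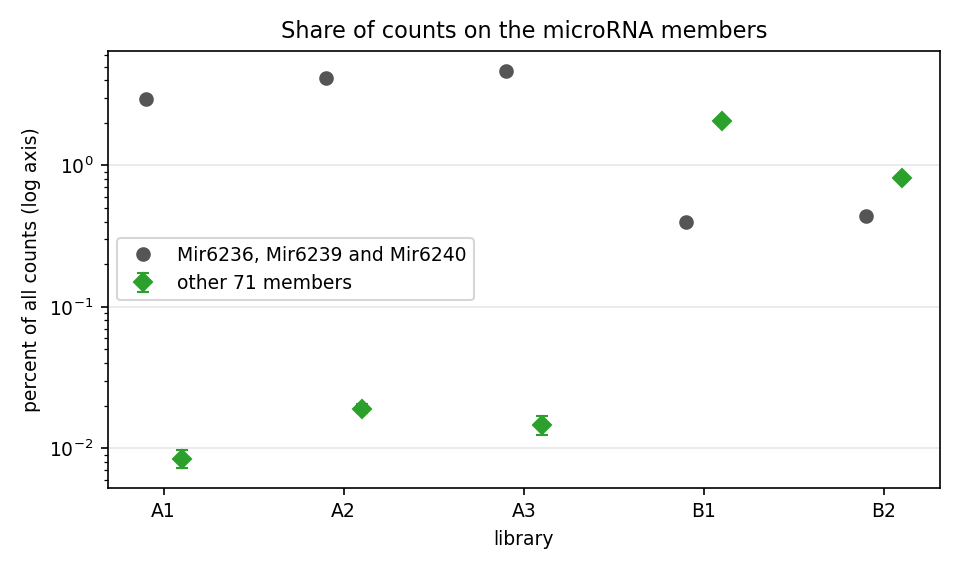
Percent of all counts (log axis) on Mir6236, Mir6239 and Mir6240 together (grey circles) and on the other 71 members (green diamonds, bars are 95% Clopper-Pearson intervals) in each library. The grey circles sit at 2.93% or higher in the A libraries and at or under 0.440% in the B libraries, and the green diamonds go from at most 0.0191% in the A libraries to 0.820% and 2.05% in the B libraries.

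Mir6236 (chromosome 9, 110281287 to 110281409, plus strand, outside other genes on that strand) had a CPM of 27552, 41017 and 46540 (A1, A2, A3), then 3498 and 3707 (B1, B2). All 3 A libraries were above both B libraries, with a mean 10.7-fold higher in variation A. Its fitted log2 fold change, B over A, was -4.99 (SE 0.99, adjusted p = 0.0114 by the quasi-likelihood test of edgeR, Benjamini-Hochberg adjusted over all genes). Mir6239 (chromosome 14, 117953743 to 117953847, minus strand) was high in A1 above all, with a CPM of 1445 there, 67.5 and 91.8 (A2, A3), then 23.8 and 30.5 (B1, B2). Its fitted log2 fold change was -5.46 (SE 1.27, edgeR adjusted p = 0.0194) and -3.10 without A1. Both calls were lost when either B library was left out, with fitted values of -4.94 and -5.06 for Mir6236 and of -5.29 and -5.67 for Mir6239.

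Mir6240 (chromosome 5, 114851948 to 114852064, plus strand) had a CPM of 266, 414 and 142 (A1, A2, A3), then 472 and 657 (B1, B2). The B libraries were above all A libraries in CPM, but the fitted log2 fold change was -0.49 with TMM scaling (SE 0.49, edgeR adjusted p = 0.487), 1.04 with library totals alone and 0.21 without A2, and none of these passed. Nothing sure is known of what these 3 genes do, and RefSeq lists a single mature sequence for each. Their annotation as miRNA was taken as given, and whether their reads are those of a microRNA was not tested. Ribosomal RNA genes took 50.0%, 54.0% and 53.9% of the counts (A1, A2, A3), then 23.0% and 24.2% (B1, B2). Their part in the values of Mir6236 and Mir6239 was not tested, beyond an exact search of the 120 mature sequences in 3320 annotated ribosomal, transfer, small nuclear and small nucleolar RNAs, which found 0 of them. That annotation may lack complete ribosomal RNAs, and an exact search misses any sequence that differs by a single base. The search therefore does not settle where these reads come from.

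Mir320, whose hairpin is cut by Dicer1 without Drosha, was the remaining member with both B libraries below all A libraries. Its CPM was 11.3, 8.44 and 19.4 (A1, A2, A3), then 5.58 and 2.31 (B1, B2), a mean 3.31-fold higher in variation A. The fitted log2 fold change was -3.17 (SE 0.60, edgeR adjusted p = 0.00995), or -3.95 without B1. Without B2 it was -2.71 and the call was lost.

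Mir10b was the most abundant member in variation B, both in CPM and per kilobase of hairpin. The miR-10 genes lie inside the Hox clusters and are best known from axial patterning and from metastasis, rather than from T lymphocytes. Mir10b (chromosome 2, 74726070 to 74726137, plus strand, within Hoxd3 and Hoxd4) had a CPM of 7.39, 45.5 and 36.2 (A1, A2, A3), then 12154 and 4501 (B1, B2). Both B libraries were far above every A library, and A1 was the lowest. The mean CPM was 280-fold higher in variation B (8328 ± 5412, SD, n = 2, against 29.7 ± 19.9, SD, n = 3), and the fitted log2 fold change was 6.47 (SE 0.94, edgeR adjusted p = 0.00399), 7.12 without A2 and 5.59 without B1. Mir10a (chromosome 11, 96317165 to 96317274, plus strand) had a CPM of 0.435, 11.3 and 6.74 (A1, A2, A3), then 2177 and 786 (B1, B2). Its mean was 240.2-fold higher in variation B, with a fitted log2 fold change of 6.20 (SE 0.95, edgeR adjusted p = 0.00504), 7.59 without A2 and 5.30 without B1.

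The ratio of Mir10b to Mir10a, per kilobase of hairpin, was 9.03 in B1 and 9.26 in B2, although both genes differed by over 2-fold between those libraries. In the shallower A libraries it ranged more widely, at 27.5, 6.502 and 8.69 (A1, A2, A3), where Mir10a had 1, 51 and 8 counts. Together they held 69.9% of the counts of the 71 members in B1 and 64.5% in B2. In variation A the same share was 9.33% in A1, 29.8% in A2 and 29.5% in A3. The genes around Mir10b were scarcely counted: Hoxd4 had 3, 5 and 0 counts over A1, A2 and A3, 67 in B1 and 46 in B2, and Hoxd3 had 1 count in A2 and 5 in B1.

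Mir182 and Mir183 are transcribed together with Mir96 and are best known from sensory organs, and miR-182 also from activated T helper cells. Mir182 (chromosome 6, 30165918 to 30165992, minus strand) had a CPM of 1.30, 5.997 and 1.68 (A1, A2, A3), then 3020.4 and 1465 (B1, B2). Mir183 (chromosome 6, 30169668 to 30169737, minus strand) had 9 counts in A2 and 0 in A1 and A3, a CPM of 2.00 in A2, against 643 in B1 and 250.4 in B2. Neither gene overlapped between the variations. The mean CPM of Mir182 was 749-fold higher in variation B, with a fitted log2 fold change of 7.76 (SE 0.75), 9.34 without A2 and 7.17 without B1. For Mir183 it was 670-fold higher, with a fitted log2 fold change of 7.21 (SE 0.84), 6.57 without A1 and 6.41 without B1. Without A2 its A libraries are at 0, so no fitted value is given. Mir96, between them in the genome, had 17 counts, all in B1.

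The other members among the 10 with the highest mean CPM followed the same order. Mir532 (chromosome X, 7248402 to 7248497, minus strand) lies in an intron of the chloride channel gene Clcn5 and had a CPM of 1.30, 2.44 and 2.53 (A1, A2, A3), then 539 and 233 (B1, B2). Its mean was 185-fold higher in variation B (log2 fold change 5.998, SE 0.54; 5.27 without B1). Mir101b (chromosome 19, 29135279 to 29135375, plus strand), in Rcl1, had 2, 2 and 0 counts (CPM 0.869, 0.444 and 0) over A1, A2 and A3, and a CPM of 421 and 204 (B1, B2). The ratio of its pooled CPM was 619, with a 95% exact counting interval of 242 to 2271, and the fitted log2 fold change was 7.79 (SE 0.57; 7.18 without B1). Mir106b (chromosome 5, 138165737 to 138165818, minus strand), in the replication gene Mcm7 and of the miR-17 family, had a CPM of 1.30, 2.67 and 1.68 (A1, A2, A3), then 321 and 155 (B1, B2). Its mean was 126-fold higher in variation B (log2 fold change 5.34, SE 0.52), 6.12 without A2 and 4.74 without B1.

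**Figure D2:**
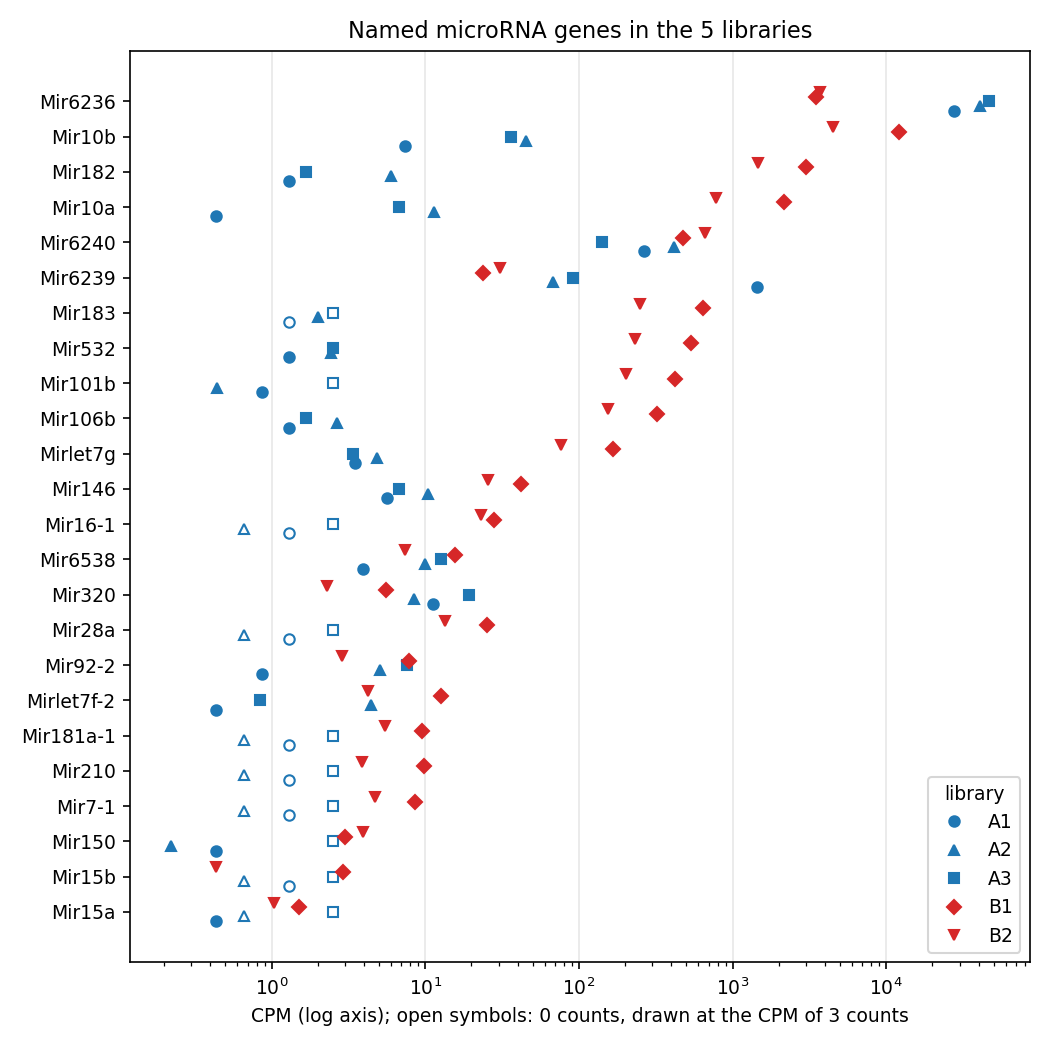
CPM (log axis) of the 24 named members in each library, blue for A1, A2 and A3 and red for B1 and B2, ordered by the mean over the 5 libraries. Open symbols are counts of 0, drawn at the CPM of 3 counts. Mir6236, Mir6239 and Mir320 have both B libraries on the left of all A libraries, and Mir10b, Mir182, Mir10a and Mir183 have theirs far to the right.

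Several of these hairpins lie inside genes that were tested themselves. Mcm7 had a CPM of 145, 168 and 146 (A1, A2, A3), then 117 and 137 (B1, B2), and was called lower in variation B (log2 fold change -1.80, SE 0.36, edgeR adjusted p = 0.0114). That call was lost with library totals alone (-0.27) and on leaving out any library but A1. The fitted value was then -1.54 without A2, -1.69 without A3, -1.69 without B1 and -1.94 without B2. Clcn5 (log2 fold change 0.23, edgeR adjusted p = 0.594) and Rcl1 (-0.40, edgeR adjusted p = 0.448) were not called with TMM, and with library totals alone Clcn5 was called higher (1.71) and Rcl1 turned to 1.04 without passing. Altogether 45 members lie inside a gene on their own strand. Those genes number 44, of which 1 was called higher, 4 lower, 27 were not called and 12 had too few counts for the test, beside 11.0% higher and 12.4% lower over all genes tested. With library totals alone 20 were called higher and 0 lower in edgeR, beside 55.1% and 2.93% of all genes tested under that scaling. Without A1 these counts were 9 and 5, and without any other library 1 and 0. With the replicate block they were 2 and 1, and with no filter on low counts 1 and 1. In these fits between 2 and 11 of the containing genes were not tested. No share over all genes is given for them, so nothing is read from these counts. The gene called higher was Nsrp1, which holds Mir423 (log2 fold change 3.17). The difference between a hairpin and the gene around it was not tested.

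Per kilobase of hairpin, the order of levels in variation B was Mir10b (122464 ± 79584 CPM per kilobase, SD, n = 2), Mir182 (29905 ± 14662), Mir6236 (29290.1 ± 1204), Mir10a (13466 ± 8940.1), Mir183 (6381 ± 3964) and Mir6240 (4827 ± 1116). In that order Mir182 and Mir6236, Mir10a and Mir183, and Mir183 and Mir6240 differed by less than their spread. In variation A, Mir6236 came first (311948 ± 79408 CPM per kilobase, SD, n = 3), then Mir6239 (5095 ± 7511), Mir6240 (2340 ± 1167) and Mir10b (437 ± 292). Mir6239 and Mir6240 differed by less than their spread there.

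The 5 highest fitted fold changes belonged to members with no count in variation A, whose fitted values are not measured sizes. Mir16-1, a member of the miR-15 and miR-16 family that restrains the cell cycle and survival genes, had 0 counts in A1, A2 and A3 and a CPM of 27.9 in B1 and 23.0 in B2. Against a floor of 3 counts in each A library it was at least 17.0-fold higher in CPM in variation B. By the same measure Mir28a, in the gene Lpp, was at least 12.8-fold higher (CPM 25.1 in B1 and 13.4 in B2). Mir181a-1, which sets the sensitivity of the T cell receptor in thymocytes, was at least 4.99-fold higher (9.51 and 5.44). Mir210, which is induced by low oxygen, was at least 4.56-fold higher (9.79 and 3.87), and Mir7-1, in Hnrnpk, at least 4.45-fold (8.60 and 4.74). These bounds use the mean of B1 and B2. For Mir210 the CPM in B1 was 2.53 times that in B2, so B2 alone would give a smaller bound. With TMM scaling the same floor gives smaller bounds, a log2 fold change of at least 2.53 for Mir16-1, 2.12 for Mir28a, 0.76 for Mir181a-1, 0.63 for Mir210 and 0.60 for Mir7-1.

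Of the 30 microRNAs known from lymphocytes or of the let-7 family that were listed by name, 8 were members, and in variation B the let-7 gene Mirlet7g led them. Mirlet7g, in an intron of Wdr82, had a CPM of 3.48, 4.89 and 3.37 (A1, A2, A3), then 167.5 and 76.5 (B1, B2). Its A libraries were close together and below both B libraries, and its fitted log2 fold change was 3.38 (SE 0.47; 2.72 without B1). Mirlet7f-2 had a CPM of 0.435, 4.44 and 0.842 (A1, A2, A3), then 12.6 and 4.22 (B1, B2), so A2 lay above B2, and its fitted log2 fold change was 0.27 (SE 0.89), with 2.59 without A2, -0.23 without A1 and -0.69 without B1. Mir146, a brake on NF-kB signalling, had a CPM of 5.65, 10.4 and 6.74 (A1, A2, A3), then 41.99 and 25.5 (B1, B2). The variations did not overlap, but the log2 fold change was 0.55 and did not pass (SE 0.46, edgeR adjusted p = 0.398), while it passed at 2.11 with library totals alone and was 1.19 without A2.

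Mir150, abundant in resting mature lymphocytes, was low throughout, with 1, 1 and 0 counts over A1, A2 and A3 and a CPM of 3.02 in B1 and 3.92 in B2. The ratio of pooled CPM was 13.9, with a counting interval of 3.78 to 116, and the fitted log2 fold change was 2.30 (SE 0.94), or 3.74 with library totals alone. Mir15a had 1 count in A1 and 0 in A2 and A3, against 33 in B1 and 24 in B2. Mir15b had 0 in the A libraries, 64 in B1 and 10 in B2. Neither passed the filter on low counts. Mir16-1 and Mir15a lie in the same transcript, Dleu2, and Mir16-1 was 16.7 times Mir15a per kilobase in B1 and 19.9 times in B2. These genes are not counted alike. An exon of Dleu2 covers 14.0% of Mir16-1, and its miR-16-5p lies in 2 hairpins, while neither limit holds for Mir15a.

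A count of 0 need not mean absence of the RNA, because of how reads were counted. Reads over more than 1 gene and reads with several alignments were left out, and strand was ignored. Of the 1174 Mir genes, 248 lie wholly under exons of other genes, and all 248 had 0 counts in all 5 libraries. Of the 109 genes that are partly covered, 20 had a count, and of the 817 with no overlap, 196 had one and 621 had 0. Of the members, which the rule required to have counts, 67 overlap no other exon and 7 overlap in part. Because the counting itself can remove these reads, the zeros set no upper limit for those microRNAs.

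**Figure D3:**
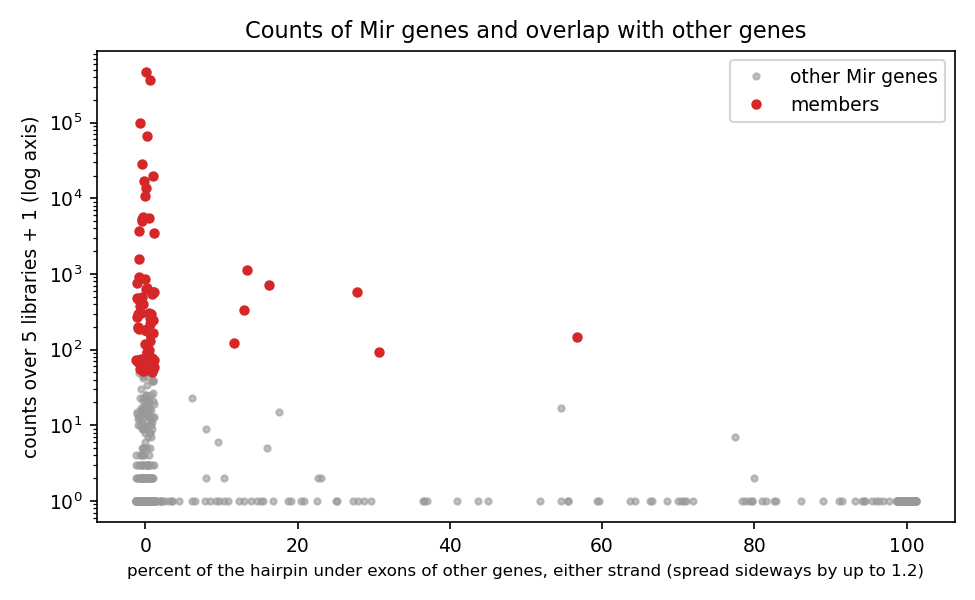
Counts summed over the 5 libraries plus 1 (log axis) against the percent of each hairpin that lies under exons of other genes on either strand, for 1174 Mir genes, with the 74 members in red. All 248 genes at 100% sit at 0 counts, and 67 of the members sit at 0% overlap.

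For many of the microRNAs best known from T lymphocytes, the counts cannot tell absence from loss in counting. Of the 30 listed, 20 had 0 counts, and 18 of these lie wholly under another exon: Mir142 under Mir142b, Mir155 under Mir155hg, Mir21a under Vmp1, Mir17, Mir18, Mir19a, Mir20a, Mir19b-1 and Mir92-1 under Mir17hg, Mir181b-1 under A430106G13Rik, Mir181b-2 under Gm44144, and the let-7 genes Mirlet7a-1, Mirlet7b, Mirlet7c-2, Mirlet7d, Mirlet7e, Mirlet7f-1 and Mirlet7i. The other 2, Mir181a-2 and Mirlet7a-2, overlap no other exon. Mir142b, antisense to Mir142, is a member with 7 counts in A2, 48 in B1 and 91 in B2, 0 in A1 and A3. Since 55.7% of it is shared with Mir142 and reads over both genes were left out, these counts come from reads outside the shared stretch, on either strand.

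Identical copies are a further limit. A mature sequence was held by more than 1 annotated hairpin for 9 members, each time by 2 hairpins: Mir16-1, Mir181a-1, Mirlet7f-2, Mir92-2, Mir128-1, Mir128-2, Mir194-2, Mir30c-1 and Mir7-1. Reads within such a sequence align to both places and are not counted, so those members are uncertain and may be undercounted. Mir16-2, the other gene of miR-16, had 0 counts in the A libraries, 8 in B1 and 33 in B2, just short of the threshold.

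Clusters that hold members were counted unevenly. Members had another Mir gene within 10000 bases on the same strand in 29 of 74 cases (39.2%), against 27.0% of the other 1100 Mir genes, a difference that was not tested. Mir106b was counted, while its neighbours Mir93 and Mir25 lie wholly under exons of Mcm7 and had 0 counts. Mir99b, with a CPM between 0.435 and 3.33 in the A libraries and of 30.3 in B1 and 9.79 in B2, was counted beside Mirlet7e and Mir125a, which had 0 counts and lie under other exons over 100% and 69.1% of their length. Mir188 and Mir500, beside Mir532, had 0 counts with no overlap at all, and Mir362 and Mir501 had 39 and 62 counts against 17158 for Mir532. The members lay on 19 chromosomes, with 10 of them on chromosome X.

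In the fit over all genes, 44 of the 74 members passed the filter on low counts. Because the rule used these same counts, and because members could pass the filter through the deep B libraries alone, the following counts are descriptions and nothing is read from them. Of the 44, 21 were called higher and 3 lower in variation B (edgeR adjusted p below 0.05, more than 2-fold), beside 23.4% of the 10287 genes tested that were called in either direction, 11.0% higher and 12.4% lower. The median fitted log2 fold change was 2.29, or 1.61 with the 6 members at 0 in all A libraries set at their lower bounds, beside 0.05 over all genes tested. With library totals in place of TMM, the median over all genes tested was 1.50, and 35 members were called higher beside 55.1% of all genes tested. TMM factors lay between 0.570 and 0.879 for the A libraries and were 1.88 and 1.85 for the B libraries, which moves every fitted value downward from the ratio of CPM. The 30 members that were not tested included 24 with 3 or fewer counts in every A library.

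By CPM alone, both B libraries lay above all A libraries for 60 of the 74 members and below them for 3, with 11 overlapping. Over the 25327 genes with a count, the same held for 42.1% above and 3.52% below. That wider set needs no sum of 50 counts, while 73 of the members reached 50 in variation B alone. The rule thus favours members that are high in variation B, and nothing is read from these counts or from those that follow. Among the 50 members not drawn by name in the figure of CPM, which include those at the threshold, mean CPM ranged from 0 to 17.3 in variation A (median 0.251) and from 1.12 to 127 in variation B (median 3.82), and 42 had both B libraries above all A libraries. The highest of these in variation B was Mir148b, in Copz1, with 1, 1 and 0 counts over A1, A2 and A3 and a CPM of 171 in B1 and 82.2 in B2 (ratio of pooled CPM 501, counting interval 139 to 4141; log2 fold change 7.47, SE 0.63; 6.84 without B1). Mir5099 was the highest in variation A, with a CPM of 27.4, 8.66 and 16.0 (A1, A2, A3), then 135 and 96.4 (B1, B2). Its log2 fold change was 1.35 (SE 0.37, edgeR adjusted p = 0.0326), a call kept only when A1 was the library left out. The fitted value was 1.12 without A2, 1.49 without A3, 1.09 without B1 and 1.54 without B2. Mir92-2, of the miR-92 family, and Mir6538 had the lowest fitted log2 fold changes after those called lower, at -1.29 (SE 0.86) and -1.16 (SE 0.63, edgeR adjusted p = 0.202). Both overlapped between the variations, and they turned to 0.32 and 0.42 with library totals alone. Without A1 they were -1.76 and -1.51, and without B1 -2.18 and -1.82, and Mir6538 passed as lower without A1. No test is read for Mir92-2.

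**Figure D4:**
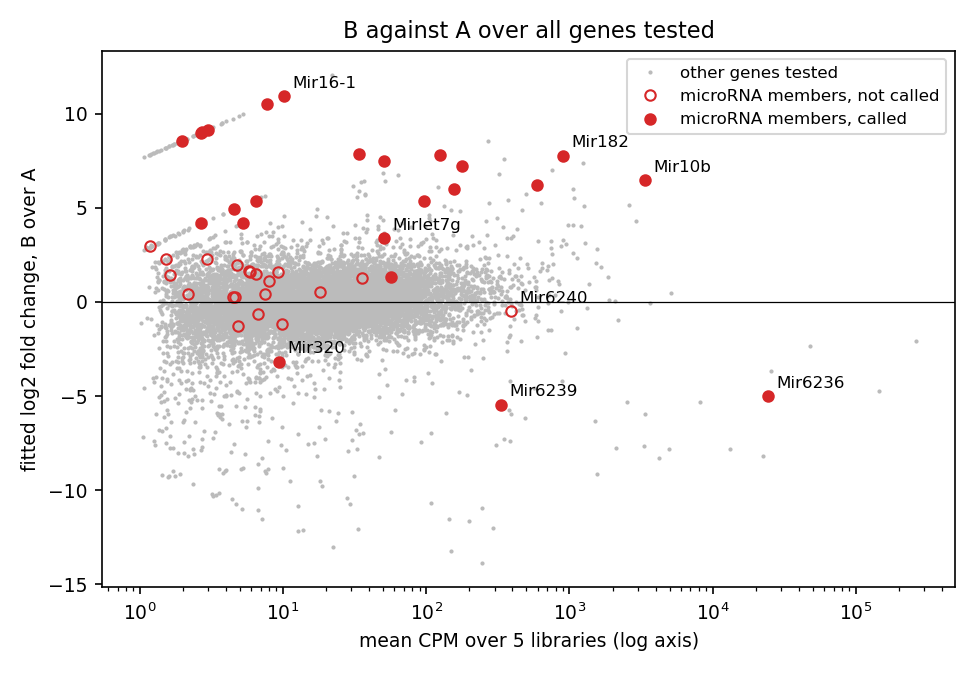
Fitted log2 fold change, B over A with TMM scaling, against the mean CPM over the 5 libraries (log axis) for 10287 genes (grey), with the 44 tested members in red, filled where called. Mir10b and Mir182 sit high at large CPM, and Mir6236, Mir6239 and Mir320 are the 3 filled points below 0. The row of filled points at the upper left holds members at 0 in all A libraries, whose fitted values are not bounds.

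The B libraries did not match each other in the microRNA genes. Leaving out Mir6236, Mir6239 and Mir6240, 70 members had 50 or more counts in variation B, and 61 of these (87.1%) had a higher CPM in B1 than in B2, with a median ratio of 2.07. Among 11403 other genes with as many counts the share was 53.0% and the median ratio 1.02, and among 116 small nucleolar RNA genes it was 72.4% and 1.17. Mir6236, Mir6240 and Mir6239 had ratios of 0.943, 0.719 and 0.780. The ratio was 2.7004 for Mir10b, 2.77 for Mir10a, 2.06 for Mir182, 2.57 for Mir183, 2.19 for Mirlet7g and 1.21 for Mir16-1. Across the 70 members the CPM of B1 and B2 had a Spearman correlation of 0.855, a description over genes that share both libraries. What separates B1 from B2 was not tested.

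**Figure D5:**
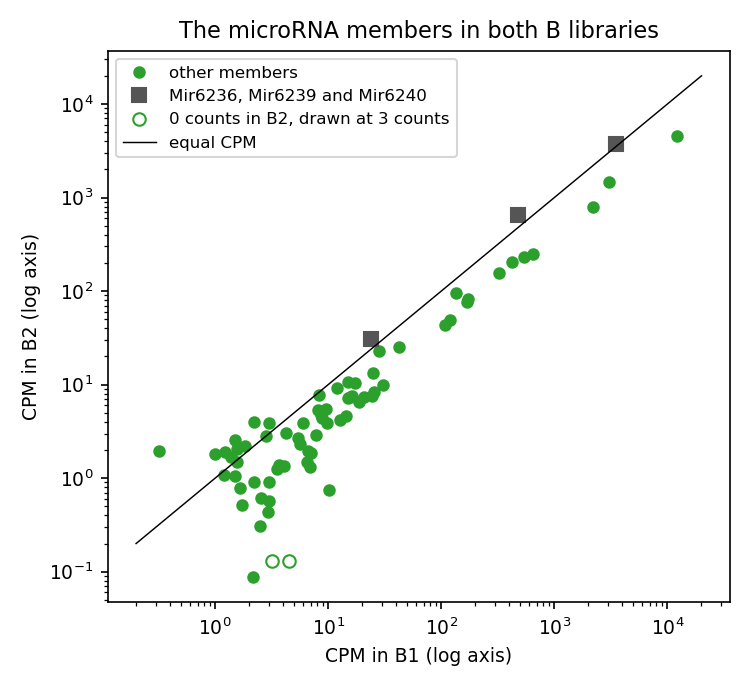
CPM of each member in B1 and in B2 (both log axes), with the line of equal CPM. Mir6236, Mir6239 and Mir6240 (grey squares) lie on or slightly above the line, and 61 of the 70 other members with 50 or more counts in variation B lie below it.

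The genes that make and use microRNAs were taken as a list by name. Of 22 such genes, 18 were tested, 4 were called higher and 2 lower in variation B, and 12 were not called, beside the 11.0% higher and 12.4% lower over all genes tested. The ones called higher were the Argonaute partners Tnrc6a (log2 fold change 1.38, SE 0.30, edgeR adjusted p = 0.0166), Tnrc6b (1.95, SE 0.27, edgeR adjusted p = 0.00335) and Tnrc6c (1.06, SE 0.29, edgeR adjusted p = 0.0322), and Tut4, which adds uridines to precursor ends (1.96, SE 0.50, edgeR adjusted p = 0.0261). Tnrc6b had a CPM of 19.6, 13.1 and 13.5 (A1, A2, A3), then 163 and 166 (B1, B2). Lower were Ago1 (-1.76, SE 0.42, edgeR adjusted p = 0.0218) and Srrt, a cofactor of nuclear processing (-1.58, SE 0.40, edgeR adjusted p = 0.0255). These lower calls depend on the scaling: with library totals alone the values were -0.19 and -0.02, and 14 of the 18 genes were called higher, beside the 55.1% of all genes tested. Only Tnrc6b kept its call without A2, A3 or B1, none was kept without B2, and Tut4 was 3.01 without A1. Without B2 the fitted values stayed about as large. They were 1.40 for Tnrc6a, 1.92 for Tnrc6b, 1.06 for Tnrc6c, 1.92 for Tut4, -1.70 for Ago1 and -1.64 for Srrt. Tnrc6c also lost its call with upper quartile scaling (0.94), and Tnrc6a, Tnrc6c and Srrt lost theirs with the replicate block.

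Ago2, the slicing Argonaute, had a CPM of 163, 177 and 144 (A1, A2, A3), then 330.3 and 323 (B1, B2). It was not called with TMM (log2 fold change -0.50, SE 0.33, edgeR adjusted p = 0.274) and was called higher with library totals alone (1.02). Drosha (0.12, edgeR adjusted p = 0.752), Dgcr8 (0.24, edgeR adjusted p = 0.643), Xpo5 (-0.02, edgeR adjusted p = 0.966) and Dicer1 (0.63, edgeR adjusted p = 0.157) were not called with TMM, but all were called higher with library totals alone (1.59, 1.66, 1.47 and 2.04). Drosha was -0.01 with upper quartile scaling, and Xpo5 lay near 0 on either side across the other fits. Lin28b, which blocks let-7 maturation, had 0 counts, and Lin28a had 1 count in each B library. Of 10 host genes named for the microRNA they carry, 2 were tested and 0 were called in edgeR: Mir17hg had 26, 12 and 1 counts over A1, A2 and A3, 284 in B1 and 242 in B2 (log2 fold change -0.15, edgeR adjusted p = 0.870), or 0.87 without A1 and 1.20 with library totals alone, and Mir142hg had 2, 10, 3, 58 and 54 (-1.11, edgeR adjusted p = 0.302), or 0.44 with library totals alone. Mir155hg had 0 counts in every library.

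Markers fixed for the cell types a sample could hold matched the label of a T lymphoma line. All 8 T lymphocyte markers were counted in every library, with a summed CPM of 659, 388 and 377 (A1, A2, A3), then 1809 and 1820 (B1, B2), and Thy1 was the highest in each. The B lymphocyte marker Ighm had a CPM of 41.7, 28.0 and 28.6 (A1, A2, A3), then 229.8 and 246 (B1, B2), while Ms4a1 had 0 counts. The 3 myeloid markers summed to at most 5.79 CPM in a library, the 3 red cell markers to 2.00, the 2 epithelial markers to 0.444, and the liver marker Alb had 0 counts. Among 16 microRNAs known from other tissues, 3 were members, all of the miR-200 family known from epithelium: Mir200a with 27 counts in B1 and 44 in B2, Mir200b with 98 in B1 and 0 in B2, and Mir200c with 3 in A2, 65 in B1 and 21 in B2. Mir223 and Mir451a had 0 counts but lie wholly under other exons, and the muscle gene Mir1a-1 had 0 counts with no overlap. The part of another cell type in the counts of the miR-200 genes was not tested.

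Just inside the threshold were Mir151 with 50 counts, Mir542 with 51 and Mir30c-1 with 52, and just outside it Mir3965 with 49 and Mir29a and Mir708 with 48 each. These counts came almost wholly from variation B: Mir151 had 38 in B1 and 12 in B2, Mir542 had 26 and 25, and Mir30c-1 had 7 and 45, with 0 in A1, A2 and A3. Mir29a had 43 and 5, and Mir708 had 2 and 46. Counts this low differed in either direction between B1 and B2, so the border of the list depends on single libraries.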

How the data were processed

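Surface-seq was measured in 5 EL4 libraries, sorted into variations by their names. The authors deposited counts per gene, made with Trimmomatic 0.36, STAR 2.7.3a and featureCounts 1.6.4 on GENCODE M24 exons (GRCm38), per the labels and the submitters' processing notes, with no normalization. Identifiers gave symbols and types from GENCODE M21 to 55144 of the 55385 genes, and all 74 members have the same position in both. CPM uses each library's total (1187117 to 22980172). B was compared with A in edgeR 4.0.16 under R 4.3.3 (filterByExpr, TMM, glmQLFit, glmQLFTest, Benjamini-Hochberg), with DESeq2 1.42.0 as an alternative. Intervals come from scipy 1.17.1. Fold bounds use 3 counts in each A library, averaged as CPM. Overlaps use the exons in the count tables.

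Genes were named by a rule: the 10 members with the highest mean CPM, the 5 highest and 5 lowest fitted fold changes, listed lymphocyte microRNAs, Mir10a and Mir10b (24 members), and, beyond these, seed partners and containing genes of the first 10 and genes at the threshold. Other genes (Mir148b, Mir5099, Mir142b, Mir99b, the miR-200 genes and neighbours in clusters) were chosen after their values were seen. The members and lists were chosen with earlier results of these data known. Alternatives covered normalization, filter, replicate block, member rules, ribosomal and mitochondrial genes and each library left out. Alternatives for the pathway list and the containing genes, and those leaving out Mir6236, Mir6239 and Mir6240, were chosen after seeing the data.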

Additional observations from a re-analysis of the deposited data

Results flagged for a closer look

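Genes annotated as miRNA whose symbols do not start with Mir fell outside the rule, and 9 of them had 50 or more counts. Summed over the 5 libraries, Snord43, a small nucleolar RNA, had 139988 counts, Gm23935 had 31344, Gm24270 had 1989, Gm25911 had 211, Gm24187 had 175, Gm24245 had 156, n-TStga1 had 68, Gm49347 had 68 and Gm25109 had 52. Snord43 had a CPM of 54.3, 26.2 and 21.1 (A1, A2, A3), then 3237 and 3001 (B1, B2), so both B libraries were above all A libraries and close to each other. Gm23935 went the other way, with a CPM of 670.1, 4797 and 4990.2 (A1, A2, A3), then 59.6 and 42.6 (B1, B2), and Gm24270 had 27.4, 328 and 369.8 (A1, A2, A3), then 0.183 and 0.305 (B1, B2). These differences were not tested here.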

How the results depend on the processing

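The same 24 members were called with TMM, the upper quartile, RLE, DESeq2, no filter, library totals, and without ribosomal and mitochondrial genes, which supports nothing, since 6 of them had 0 counts in all A libraries and the counts chose the members. Library totals alone raised the members called higher to 35, the median log2 fold change to 3.74 and the pathway genes called higher to 14, with 0 lower, and turned Ago2 to 1.02. With the replicate block, 19 members were called higher and 3 lower, and the pathway genes called were 2 higher and 1 lower. The numbers show no pairing: deviations of same-numbered libraries correlated at -0.10 (replicate 1) and -0.03 (replicate 2). Leaving out each library in turn (a lone B library is assumed to vary like A) gave 12 to 24 members higher, 0 to 5 lower, a median of 1.96 to 6.32, and 0 to 6 pathway genes higher (6 without A1, 1 without A2, A3 or B1, 0 without B2) and 0 to 2 lower. Fewer libraries change both the filter and the power. No share over all genes is given for these fits or for the replicate block. Nothing is therefore read from their counts and medians.

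Of 25 members chosen on the A libraries alone, 24 were tested, with a median of 1.18. Of these, 7 were called higher, beside 11.0% of all genes tested. Mir6236, Mir6239 and Mir320 were called lower, beside 12.4% of all genes tested. The A counts that chose these members also enter the comparison, so nothing is read from these calls. The list holds 88 genes at a sum of 25, 53 at 100 and 67 without overlapping members. The mean share of counts in variation A was 8.45% without ribosomal and mitochondrial genes, 0.0949% without each library's most counted member and 0.0140% without Mir6236, Mir6239 and Mir6240, after which 1 member was called lower. The share of the other 71 members in A was 0.0302% without ribosomal and mitochondrial genes. The cause of these shifts was not tested. In the A libraries together, which were the shallowest, 18 members had 0 counts and 18 more had 1 to 3.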
